A study of Arabidopsis thaliana with 12 samples.

Results

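The plant mitochondrial genome encodes a small part of the respiratory machinery: core subunits of complexes I, III and IV and of the ATP synthase, some ribosomal proteins, proteins that mature cytochrome c, a maturase for intron splicing and a translocase subunit. Most other proteins of mitochondria are encoded in the nucleus, imported, and assembled with the mitochondrially encoded ones. The Arabidopsis mitochondrial genome also carries many open reading frames (ORFs) with no known function, named by their length in codons. Genes of this genome bear locus identifiers that start with ATMG. There were 121 such genes among the 23174 genes of the table. They comprised 38 genes with a known role and 83 ORFs.

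Total RNA came from rosette leaves of Col-0 plants grown for 3 weeks at 23 °C. The 4 groups of 3 libraries were atcyp18-2 leaves kept at 47 °C for 1 h, WT leaves heated in the same way, atcyp18-2 control leaves and WT control leaves. The mutant atcyp18-2 affects the cyclophilin AtCYP18-2, a peptidyl-prolyl isomerase. The labels do not give the kind of mutation, do not name a control kept at 23 °C for the same hour, and do not say whether replicates came from separate plants. The p-values therefore reflect the spread between these 12 libraries alone, which may be technical.

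Each library held 9118538 to 12567554 reads, of which chloroplast genes took 59.7% to 69.8%. Reads of the mutated gene, AT2G36130, numbered 12, 34 and 17 in heated atcyp18-2 leaves, 55, 48 and 65 in heated WT leaves, 13, 13 and 11 in atcyp18-2 control leaves and 92, 99 and 62 in WT control leaves, so each atcyp18-2 library was below each WT library of the same condition. Its log2 difference between atcyp18-2 and WT was -2.55 ± 0.26 (SE) in control leaves (adjusted p = 0.00347, edgeR) and -1.13 ± 0.24 after heat (adjusted p = 0.106, edgeR). All 4 markers of leaf mesophyll were fitted, and 0 of 3 flower and seed markers were. The 4 markers of dividing cells summed to 4.46 to 5.87 TMM-scaled CPM in heated atcyp18-2 leaves, 7.52 to 11.6 in heated WT leaves, 16.9 to 20.3 in atcyp18-2 control leaves and 17.5 to 20.6 in WT control leaves; 4 of 4 fell after heat in atcyp18-2 leaves and 3 of 4 in WT leaves, while the 2 root markers, of which 1 was fitted, summed to 9.93 to 16.8 in heated and 20.97 to 32.2 in control leaves of atcyp18-2, and to 9.19 to 21.1 in heated and 22.9 to 53.5 in control leaves of WT. The 4 guard cell markers summed to 9.54 to 13.03 in heated and 12.3 to 14.4 in control leaves of atcyp18-2, and to 8.85 to 10.6 in heated and 12.6 to 13.8 in control leaves of WT. The 2 phloem markers went the other way, at 49.8 to 72.3 in heated and 33.3 to 55.1 in control leaves of atcyp18-2. In WT leaves they summed to 39.4 to 53.5 in heated and 31.6 to 55.1 in control leaves. The mesophyll markers summed to 11364 to 17798 in heated and 11025 to 16059 in control leaves of atcyp18-2. Their WT sums were 11345 to 18816 in heated and 10414 to 17739 in control leaves. The ranges of these 2 lists overlapped. The part of these markers in the heat results was not tested. Within every group the libraries stood apart along 1 component of nuclear genes that held 60.7% of the variance within groups. Its score was negative in atcyp18-2 heat replicate 2, WT heat replicate 3, atcyp18-2 control replicate 1 and WT control replicates 1 and 2, and positive in the 7 other libraries. Counts of calls are given also for the 7 libraries of positive score alone.

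Mitochondrial genes took a small and similar part of each library. Their reads made up 1.55%, 1.44% and 1.59% of the library in heated atcyp18-2 leaves and 1.71%, 1.72% and 1.51% in heated WT leaves, against 1.35%, 1.59% and 1.55% in atcyp18-2 control leaves and 1.31%, 1.38% and 1.58% in WT control leaves. The heated and control ranges overlapped in both genotypes. The widest 95% Wilson interval of a single library spanned 0.0166 percentage points, which covers counting error only. The mean was 1.53% ± 0.0794 in heated and 1.496% ± 0.130 in control leaves of atcyp18-2, and 1.65% ± 0.119 in heated and 1.42% ± 0.137 in control leaves of WT (SD, n = 3 each).

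Because chloroplast reads dominate the libraries, the share was also taken of the reads outside the chloroplast genome. It averaged 4.73% ± 0.778 in heated atcyp18-2 leaves, 5.0002% ± 0.914 in heated WT leaves, 4.01% ± 0.536 in atcyp18-2 control leaves and 3.76% ± 0.693 in WT control leaves (SD, n = 3 each). The groups overlapped. Among the libraries with a positive component score the share was 5.13% and 5.22% in heated atcyp18-2 leaves and 5.56% and 5.49% in heated WT leaves, against 4.35% and 4.28% in atcyp18-2 control leaves and 4.56% in the 1 WT control library. Among those with a negative score it was 3.83% in heated atcyp18-2 and 3.95% in heated WT leaves, against 3.39% in atcyp18-2 control and 3.31% and 3.42% in WT control leaves. Within each kind of library, heated leaves were above control leaves in this share, with few libraries in each. The split by score was made after seeing the data. As a share of all reads the atcyp18-2 libraries of positive score overlapped, at 1.548% and 1.595% in heated and 1.593% and 1.546% in control leaves. In bulk tissue, fewer cells of a type and less RNA per cell cannot be told apart.

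**Figure D1:**
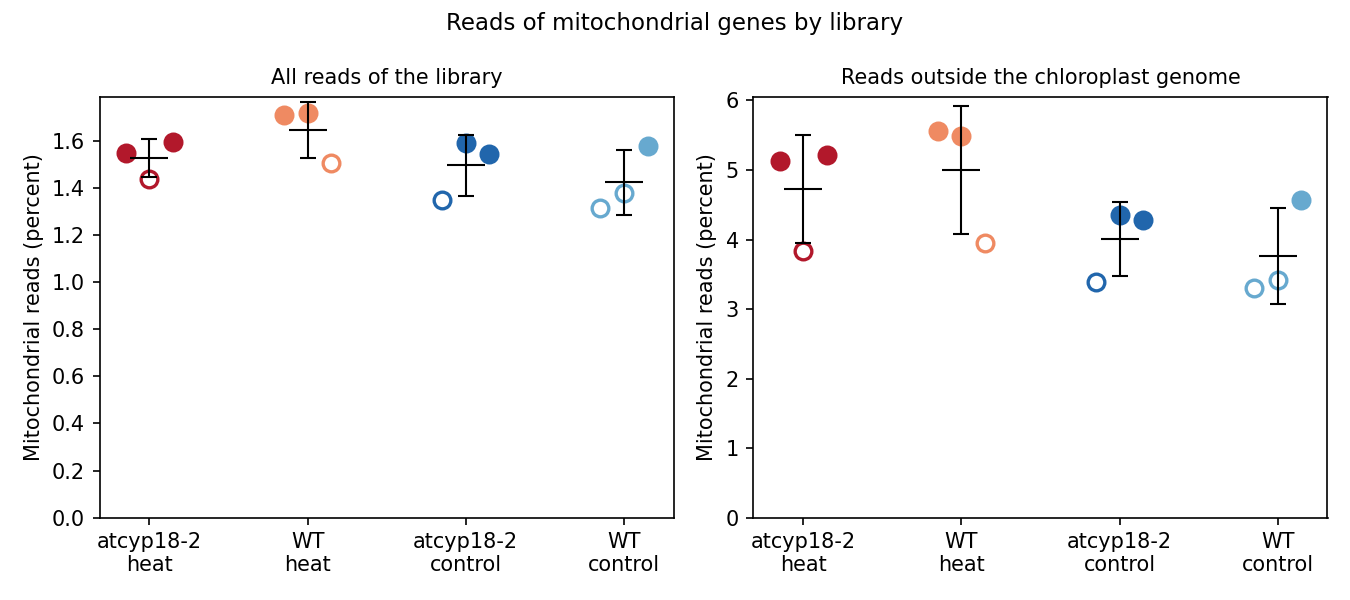
Percent of reads from mitochondrial genes in each library, of all reads (left) and of reads outside the chloroplast genome (right), with the mean and SD of 3 libraries in black; filled points are libraries with a positive component score and open points those with a negative one. The groups overlap in both panels, from 1.31% to 1.72% of all reads and from 3.31% to 5.56% of the others.

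Few genes supplied most of these reads. The 5 genes with most reads held 40.1% of all mitochondrial reads, and the 10 with most held 60.5%; read numbers were not corrected for gene length, which the files do not give. COX1, the catalytic subunit of complex IV, had 201010 reads over the 12 libraries and ATP1, the alpha subunit of the ATP synthase, had 199732. By role, ATP synthase genes held 30.7% to 34.8% of the mitochondrial reads of a library, complex I genes 19.1% to 23.8%, complex IV genes 14.7% to 19.2% and the genes outside the role lists 13.1% to 17.9%. Of the 121 genes, 88 passed the filter on low counts and were fitted: all 38 genes with a role and 50 of the 83 others. The 33 that were not fitted had 3 to 87 reads each in all libraries together. Among the fitted genes 7 reached the filter through heated libraries alone and 3 through control libraries alone. Heat calls of these members are a description, because they were fitted only through being high in that condition.

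Several of these rows share sequence with other rows. Chromosome 2 holds a near-identical copy of much of the mitochondrial genome, and 24 of the genes that the NCBI assembly TAIR10.1 names on the mitochondrial genome had a chromosome 2 locus of at least 99% identity over at least 50% of the gene; 16 such loci were in the table. Reads were counted on both kinds of row. AT2G07698 had 250291 reads beside the 199732 of ATP1, and AT2G07727 had 144239 beside the 76311 of COB, the cytochrome b of complex III. The ratio of the chromosome 2 row to its mitochondrial row ranged over libraries from 1.23 to 1.28 for ATP1 and from 1.85 to 1.94 for COB. How reads that match both places were assigned is not given in the sources used here, so the split between the rows is uncertain. ORF110A, the most read ORF with 116952 reads, is described in the deposited table as a Rubisco large chain, a chloroplast protein, and ORF199 as Ycf1, another one. Both were counted among the mitochondrial reads, and where their reads came from was not tested.

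After 1 h at 47 °C, many mitochondrial genes rose under TMM scaling, which aligns most genes between libraries. In atcyp18-2 leaves 24 of the 88 fitted genes rose and 1 fell, with a median log2 fold change of 0.72, where among all 16664 fitted genes 16.2% rose, 16.2% fell and 32.4% changed in either direction, with a median of -0.03. In WT leaves 55 of 88 rose and 0 fell, with a median of 0.98, where 13.1% of all genes rose, 10.7% fell and 23.8% changed, with a median of -0.04. In 37 of 88 genes all heated libraries were above all control libraries in atcyp18-2 leaves, where 21.7% of all genes did so, and 2 were below, where 23.1% did so. In WT leaves 37 were above, where 18.5% of all genes did so, and 0 were below, where 19% did so. All 24 that rose in atcyp18-2 leaves were among the 55 that rose in WT leaves. Calls are at an adjusted p below 0.05 in edgeR's quasi-likelihood test with Benjamini-Hochberg adjustment over all genes. The heat response differed between genotypes for 0 of 88 genes in this test, and for 0 of all 16664 genes. Of the 88, 3 had an unadjusted p below 0.05, a count with no share of all genes beside it. Of the 88 fitted chloroplast genes 25 rose and 0 fell in atcyp18-2 leaves, with a median of 0.39, and 16 rose and 7 fell in WT leaves, with a median of 0.07.

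These counts depended on the scaling. With library totals, 8 mitochondrial genes rose and 9 fell in atcyp18-2 leaves, with a median of -0.02, where 6.07% of all genes rose and 44.6% fell. In WT leaves 12 rose and 3 fell, with a median of 0.22, where 4.82% of all genes rose and 45.2% fell. That scaling put the median of all genes at -0.76 in atcyp18-2 leaves and -0.77 in WT leaves. They also varied with the libraries: without 1 library the number of calls was 15 to 41 for heat in atcyp18-2 leaves and 19 to 72 for heat in WT leaves. In atcyp18-2 leaves it was 15 without heat replicate 3, 16 without control replicate 1, 41 without heat replicate 2, 39 without WT heat replicate 3 and 38 without WT control replicate 3. In WT leaves it was 19 without heat replicate 1, 22 without heat replicate 2, 24 without control replicate 1 and 22 without control replicate 2. No share of all genes stands beside these counts, and whether the whole table moved alike was not tested. With the 7 libraries of positive score 68 rose and 1 fell in atcyp18-2 leaves, where 20.8% of all genes rose and 18.3% fell, and 71 rose and 0 fell in WT leaves, where 13.5% rose and 10% fell. There the lone WT control library is assumed to vary like the other groups.

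All values of the role groups are under TMM scaling, where 16.2% of all genes rose in atcyp18-2 leaves and 13.1% in WT leaves. With library totals the mitochondrial genes that rose were all ORFs outside the role lists, in both genotypes. Of the complex I genes 1 of 14 rose in atcyp18-2 leaves, with a median log2 fold change of 0.83, and 10 of 14 rose in WT leaves, with a median of 1.04. The NAD1, NAD2 and NAD5 rows are separately transcribed parts of 1 gene each, so the 14 are loci and not separate genes. NAD4, a membrane subunit of complex I, was at 7876, 5915 and 8029 reads in heated atcyp18-2 leaves and 10250, 8782 and 7743 in heated WT leaves, against 5149, 9733 and 7656 in atcyp18-2 control leaves and 5720, 6203 and 8746 in WT control leaves. Its log2 fold change was 0.90 ± 0.37 (SE) with an adjusted p of 0.0795 in atcyp18-2 leaves and 1.09 ± 0.37 with an adjusted p of 0.0474 in WT leaves, in edgeR's test. Raw reads of the groups overlapped in both genotypes, and the WT call of NAD4 passed in 8 of 21 alternatives. The WT calls of NAD1B and NAD3 were also near the threshold (adjusted p = 0.0483 and 0.0487, edgeR). They passed in 8 of 21 and 9 of 21. NAD5B, a separately transcribed part of the gene for another membrane subunit, had the highest change of the group in WT leaves, 1.24 ± 0.37 (adjusted p = 0.0294, edgeR), a call that passed in 15 of 21.

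Of the 3 complex IV genes 1 rose in atcyp18-2 leaves and 3 rose in WT leaves. COX1 stood at 0.87 ± 0.36 on the log2 scale in atcyp18-2 leaves (adjusted p = 0.0803, edgeR), and rose by 1.12 ± 0.36 in WT leaves (adjusted p = 0.0380, edgeR). COX2, another catalytic core subunit, rose in both, by 0.86 ± 0.29 in atcyp18-2 leaves (adjusted p = 0.0375, edgeR) and 1.04 ± 0.29 in WT leaves (adjusted p = 0.0205, edgeR). COB, the only complex III gene of this genome, stood at 0.87 ± 0.35 in atcyp18-2 leaves (adjusted p = 0.0722, edgeR) and rose by 1.12 ± 0.35 in WT leaves (adjusted p = 0.0341, edgeR). Over the alternatives the atcyp18-2 call of COX2 passed in 13 of 22, and the WT calls passed in 14 of 22 for COX1, 17 of 22 for COX2, 8 of 21 for COX3 and 13 of 21 for COB.

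Of the 6 ATP synthase genes 3 rose in each genotype. ATP9, the ring subunit, rose by 0.83 ± 0.23 in atcyp18-2 leaves (adjusted p = 0.0161, edgeR) and 0.94 ± 0.23 in WT leaves (adjusted p = 0.0108, edgeR). The genes for maturation of cytochrome c rose in 1 of 5 cases in atcyp18-2 leaves and 2 of 5 in WT leaves, CCB382 in both, by 0.74 ± 0.16 in atcyp18-2 leaves (adjusted p = 0.00341, edgeR) and 0.75 ± 0.16 in WT leaves (adjusted p = 0.00436, edgeR). Of the 7 ribosomal protein genes 3 rose in each genotype; RPL5 and RPL2 rose in both, and RPL16 did not pass, at 0.23 ± 0.28 in WT leaves (adjusted p = 0.597, edgeR). Of the 2 maturase and transport genes, MATR and ORFX, 0 passed in atcyp18-2 leaves, where 2 had an unadjusted p below 0.05, and both rose in WT leaves, where the calls passed in 14 of 21 alternatives for MATR and 16 of 21 for ORFX. With the 7 libraries of positive score, calls were also made in atcyp18-2 leaves for NAD4 at 0.95, COX1 at 0.92, COX3 at 0.86, COB at 0.91, MATR at 1.02 and ORFX at 0.90.

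**Figure D2:**
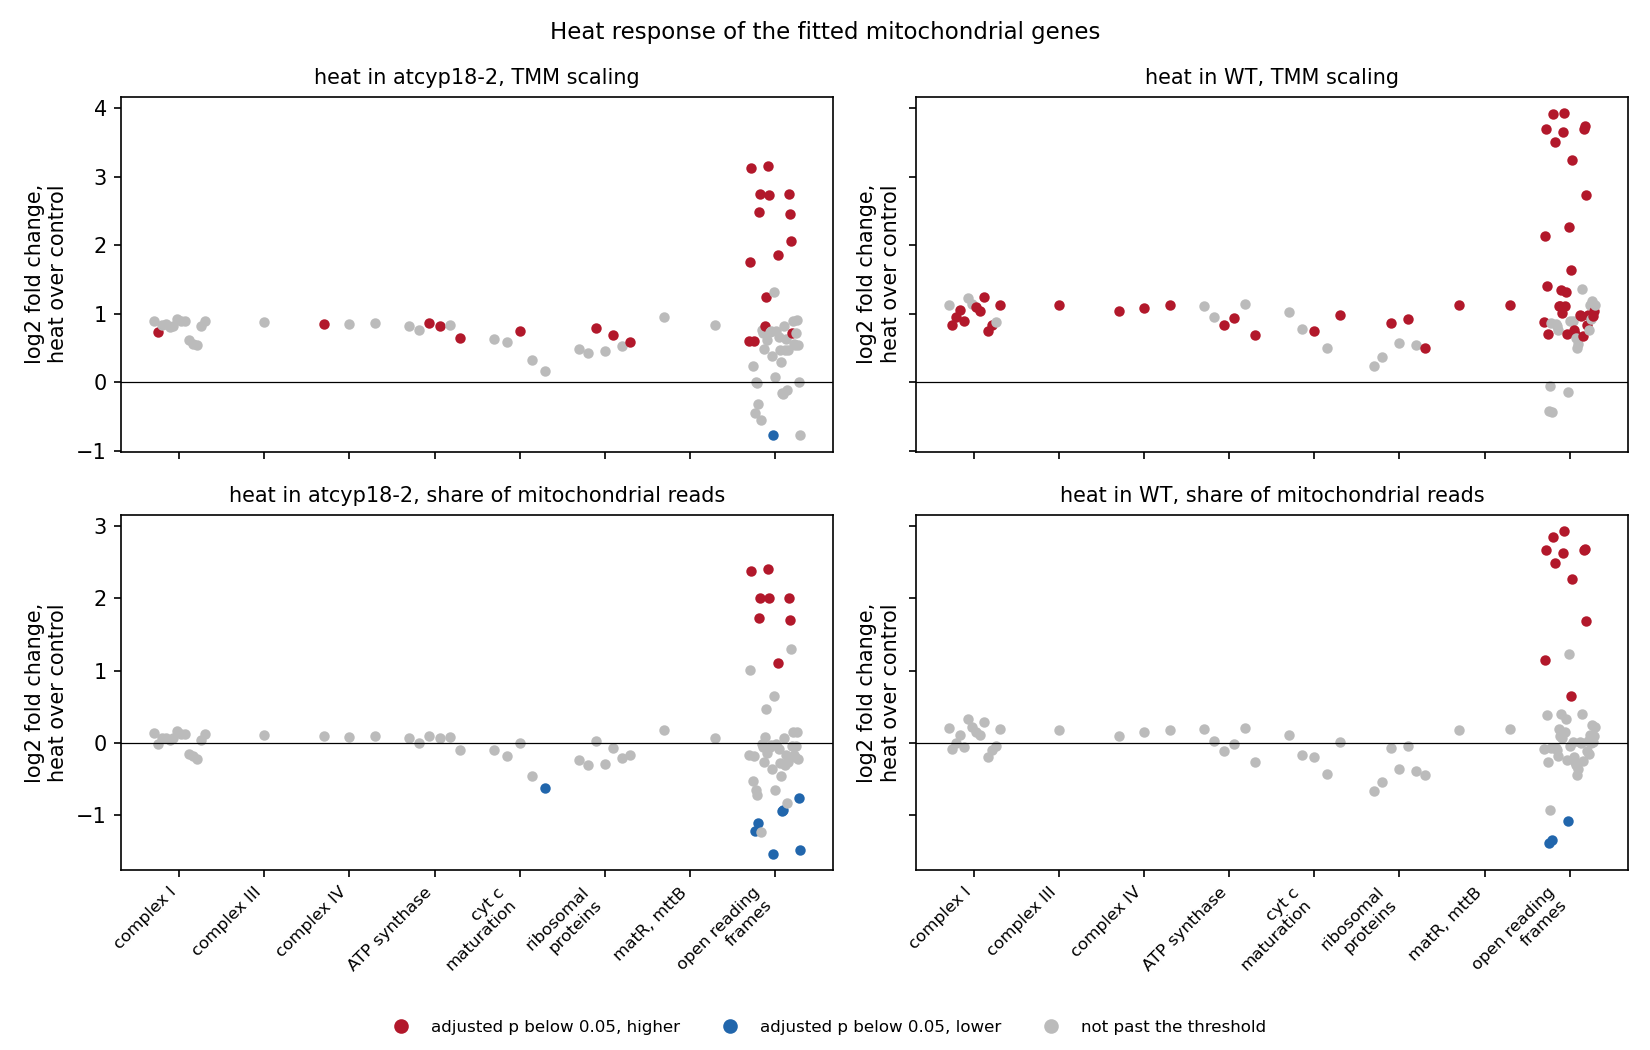
log2 fold change of heat over control for the 88 fitted mitochondrial genes, by role, in atcyp18-2 (left) and WT leaves (right), under TMM scaling (top) and as a share of mitochondrial reads (bottom); colours give the edgeR call. Under TMM scaling most points lie above 0, and within the mitochondrial reads the genes with a role lie closer to 0 than some ORFs, which reach 2.41 in atcyp18-2 leaves and 2.93 in WT leaves.

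The same genes were then set against the mitochondrial total of their library, which tests how the makeup of the mitochondrial reads changed. No change past the threshold was measured for genes of the respiratory complexes and the ATP synthase: of the 38 genes with a role 1, the cytochrome c maturation gene CCB203, passed in atcyp18-2 leaves, as lower, and 0 passed in WT leaves, with 0 at an unadjusted p below 0.05. With the 7 libraries of positive score the ribosomal protein genes RPL16 and RPS3 also passed, at -0.47 and -0.45 in atcyp18-2 leaves and -0.47 and -0.38 in WT leaves. Outside the role lists 8 of 50 rose and 7 fell in atcyp18-2 leaves, and 11 of 50 rose and 3 fell in WT leaves. Under this scaling 4.98% of all genes rose and 38.9% fell in atcyp18-2 leaves, 43.9% in all, with a median of -0.79. In WT leaves 3.67% rose and 50.5% fell, 54.2% in all, with a median of -0.98. The adjustment ran over all these genes, and so many calls among them make the threshold easier to pass for mitochondrial genes. In atcyp18-2 leaves an unadjusted p of 0.0138 for ORF145A gave an adjusted p of 0.0354 (edgeR). All heated libraries lay above all control libraries for 10 of the 88 mitochondrial genes in atcyp18-2 leaves (6.81% of all genes) and below them for 14 (50.2% of all genes). In WT leaves they lay above for 12 (4.31% of all genes) and below for 5 (47.2% of all genes). The share of ATP1 was 8.26%, 13.97% and 8.59% in heated atcyp18-2 leaves and 7.89%, 8.25% and 13.8% in heated WT leaves, against 13.9%, 9.53% and 9.55% in atcyp18-2 control leaves and 13.7%, 14.1% and 8.09% in WT control leaves. The 5 high values are those of the 5 libraries with a negative component score, in every group.

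A set of 8 ORFs rose in both genotypes within the mitochondrial reads, and also with TMM, library totals, size factors of the RLE type and scaling on nuclear genes. They are ORF139A, ORF139B, ORF106A, ORF106G, ORF152A, ORF152B, ORF110B and ORF164. Their proteins have no known function; the deposited table describes the 2 ORF139 rows as transmembrane proteins and ORF164 as a DNA-binding protein. They were read at low depth, with 227 to 838 reads each over the 12 libraries. ORF106A, ORF106G, ORF110B and ORF164 reached the filter on low counts through heated libraries alone, so they would not have been fitted without being high there. Their number, their adjusted p-values and their tallies of alternatives are therefore a description.

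ORF139A had 80, 91 and 77 reads in heated atcyp18-2 leaves and 148, 177 and 147 in heated WT leaves, against 17, 27 and 7 in atcyp18-2 control leaves and 18, 28 and 14 in WT control leaves. All 6 heated libraries were above all 6 control libraries. Among mitochondrial reads it changed by 2.38 ± 0.38 on the log2 scale in atcyp18-2 leaves (adjusted p = 0.000629, edgeR) and by 2.68 ± 0.38 in WT leaves (adjusted p = 0.000387, edgeR), and it passed in 17 of 17 alternatives in each genotype. ORF139B had nearly the same reads, 0.963 to 1.11 times those of ORF139A in every library, so the pair may count the same reads.

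ORF110B had 31, 34 and 31 reads in heated atcyp18-2 leaves and 63, 63 and 55 in heated WT leaves, against 3, 6 and 15 in atcyp18-2 control leaves and 8, 4 and 5 in WT control leaves. Its heated and control libraries did not overlap in either genotype. The change among mitochondrial reads was 2.01 ± 0.43 in atcyp18-2 leaves (adjusted p = 0.00338, edgeR) and 2.93 ± 0.44 in WT leaves (adjusted p = 0.000529, edgeR).

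ORF106A had 27, 14 and 37 reads in heated atcyp18-2 leaves and 87, 56 and 39 in heated WT leaves, against 3, 17 and 5 in atcyp18-2 control leaves and 9, 4 and 5 in WT control leaves. The atcyp18-2 groups overlapped in raw reads through heat replicate 2, with 14 reads, and control replicate 2, with 17, though not as shares of mitochondrial reads. It changed by 1.73 ± 0.50 in atcyp18-2 leaves (adjusted p = 0.0156, edgeR) and 2.85 ± 0.50 in WT leaves (adjusted p = 0.00125, edgeR), and the atcyp18-2 call passed in 14 of 17 alternatives; it was lost without heat replicate 3 or control replicates 1 or 3 of atcyp18-2. ORF106G, ORF152A and ORF152B changed by 1.70 to 2.01 in atcyp18-2 leaves and 2.49 to 2.69 in WT leaves on the same scale, and the call of ORF152A in atcyp18-2 leaves passed in 13 of 17 alternatives. ORF106G had 0.892 to 1.40 times the reads of ORF106A in a library, and ORF152B 0.812 to 1.17 times those of ORF152A, and whether these pairs share reads was not tested.

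ORF164 had 18, 12 and 17 reads in heated atcyp18-2 leaves and 53, 37 and 46 in heated WT leaves, against 6, 12 and 5 in atcyp18-2 control leaves and 8, 6 and 7 in WT control leaves. The atcyp18-2 groups met at 12 reads. The change among mitochondrial reads was 1.10 ± 0.31 in atcyp18-2 leaves (adjusted p = 0.0151, edgeR) and 2.27 ± 0.30 in WT leaves (adjusted p = 0.000291, edgeR). These reads are those of an assembled transcript; with the annotated transcript of the locus the values were 0.47 in atcyp18-2 and 0.99 in WT leaves, and neither passed. ORF143, ORF215B and ORF111B stood at 1.00, -0.02 and 1.30 among mitochondrial reads in atcyp18-2 leaves without passing, and rose by 1.15, 0.65 and 1.68 in WT leaves, where the calls passed in 13 of 17, 13 of 17 and 10 of 16 alternatives. ORF143 and ORF111B too reached the filter through heated libraries alone, so their calls are a description. The difference between genotypes did not pass for these 3 ORFs. ORF215B and ORF111B rest on assembled transcripts.

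**Figure D3:**
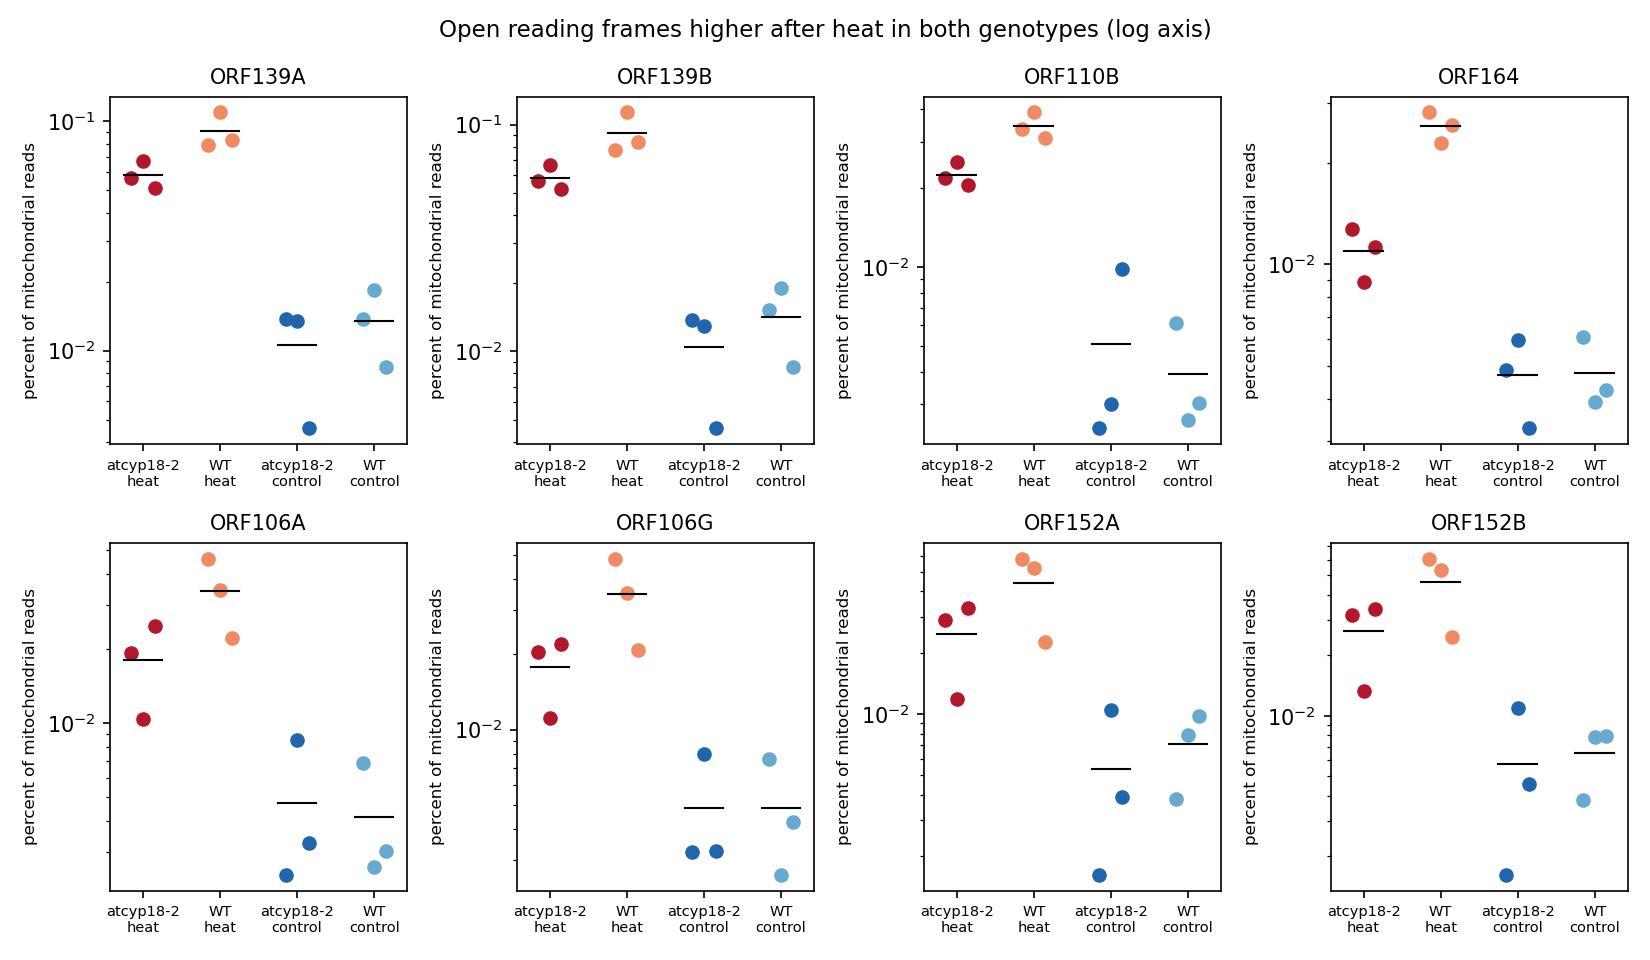
Percent of mitochondrial reads, on a log axis, of the 8 ORFs that rose in both genotypes, with 3 libraries per group as points and their mean as a line; heated groups are on the left of each panel. In every panel the means of both heated groups lie above those of both control groups, from 0.0110% to 0.0915% against 0.00392% to 0.0142%.

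ORF106C was too low to be fitted, and was picked out after its values were seen. It had 4, 3 and 1 reads in heated atcyp18-2 leaves and 12, 8 and 4 in heated WT leaves, against 0 in all 6 control libraries, where a count of 0 allows up to 3 reads in all. The locus numbers of ORF106C, ORF139B and ORF110B, ATMG00600, ATMG00620 and ATMG00630, follow each other closely, with ORF161 at ATMG00610, which had 216 to 375 reads in every library. Among chromosome 2 loci of mitochondrial sequence, AT2G07722, AT2G07701 and AT2G07702 rose by 3.20, 2.50 and 2.72 on the log2 scale in atcyp18-2 leaves under TMM scaling, and by 3.85, 3.92 and 3.65 in WT leaves; these too were picked out after their values were seen. Over all 69 such loci that were fitted, 10 rose and 2 fell in atcyp18-2 leaves, with a median of 0.51. Among all genes 16.2% rose and 16.2% fell there, so the share of loci that rose was near that of all genes. In WT leaves 26 rose and 0 fell, with a median of 0.86, where 13.1% of all genes rose and 10.7% fell. Which of these reads belong to the mitochondrial rows cannot be told apart.

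The authors' deposited table of changed genes lists some of the same ORFs. It comes from the same 12 libraries and is not separate evidence. The whole series held 23174 genes, 121 of them mitochondrial. For heat in WT leaves it holds 6 mitochondrial genes among 1020 genes listed, all higher and all ORFs. The log2 fold changes were 3.98 for ORF110B, 3.96 for ORF106A, 3.77 for ORF106G, 3.75 for ORF139A, 3.70 for ORF139B and 1.28 for ORF215B. In the same order the values under TMM scaling here were 3.94, 3.91, 3.74, 3.70, 3.66 and 1.63. Those among mitochondrial reads, given above, are on another scale. For heat in atcyp18-2 leaves the authors' deposited table holds 2 among 1649 genes listed, ORF139B at 3.22 and ORF139A at 3.20. No mitochondrial gene with a role is listed for heat in either genotype.

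Some members lost share among mitochondrial reads after heat. ORF120, ORF199 and ORF145A lost share in both genotypes. ORF120, described in the deposited table as ribonuclease H-like, had 45, 39 and 36 reads in heated atcyp18-2 leaves and 81, 72 and 91 in heated WT leaves, against 114, 142 and 135 in atcyp18-2 control leaves and 135, 155 and 151 in WT control leaves. The heated libraries were below the control libraries in both genotypes. It fell by 1.54 ± 0.21 on the log2 scale in atcyp18-2 leaves (adjusted p = 0.000245, edgeR) and by 1.08 ± 0.21 in WT leaves (adjusted p = 0.00184, edgeR). Under TMM scaling it fell by 0.77 ± 0.24 in atcyp18-2 leaves (adjusted p = 0.0250, edgeR), while the WT value was -0.14 ± 0.23 (adjusted p = 0.695, edgeR). Its reads are those of an assembled transcript, and the annotated one was too low to be fitted.

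ORF199, described as the chloroplast protein Ycf1, had 47, 46 and 48 reads in heated atcyp18-2 leaves and 57, 27 and 81 in heated WT leaves. Its control reads were 110, 139 and 90 in atcyp18-2 leaves and 124, 124 and 106 in WT leaves. It fell by 1.11 ± 0.33 in atcyp18-2 leaves (adjusted p = 0.0178, edgeR) and by 1.35 ± 0.33 in WT leaves (adjusted p = 0.00628, edgeR). Its heated and control libraries did not overlap in either genotype. ORF145A, described as related to retrotransposon Gag-Pol, fell by 1.22 ± 0.42 in atcyp18-2 leaves (adjusted p = 0.0354, edgeR) and by 1.39 ± 0.41 in WT leaves (adjusted p = 0.0163, edgeR), on 2 to 30 reads a library. The call of ORF145A passed in 10 of 17 alternatives in atcyp18-2 leaves and 14 of 17 in WT leaves, and that of ORF199 in 14 of 17 in atcyp18-2 leaves and 17 of 17 in WT leaves. ORF145A reached the filter on low counts through control libraries alone, so its calls are a description. With TMM scaling ORF199 stood at -0.32 in atcyp18-2 and -0.44 in WT leaves, without passing. ORF145A stood at -0.45 in atcyp18-2 and -0.42 in WT leaves on that scale, also without passing.

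In atcyp18-2 leaves ORF204, ORF153B, ORF107F, ORF111D and CCB203 lost share among mitochondrial reads as well, by 1.49, 0.95, 0.94, 0.77 and 0.63 on the log2 scale. Under TMM scaling their values there were -0.78, -0.16, -0.17, -0.0024 and 0.16, without passing. The call of ORF204, which also reached the filter through control libraries alone, passed in 11 of 17 alternatives and is a description. In WT leaves the values of the 5 genes among mitochondrial reads were 0.22, -0.31, -0.45, 0.09 and 0.00 without passing. The difference between genotypes did not pass in edgeR's test for these 5 genes. The calls of ORF107F, ORF111D and CCB203 rest on assembled transcripts, and with the annotated ones the values in atcyp18-2 leaves were -0.52, -0.76 and -0.22 and did not pass. CCB203 takes part in the maturation of cytochrome c.

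**Figure D4:**
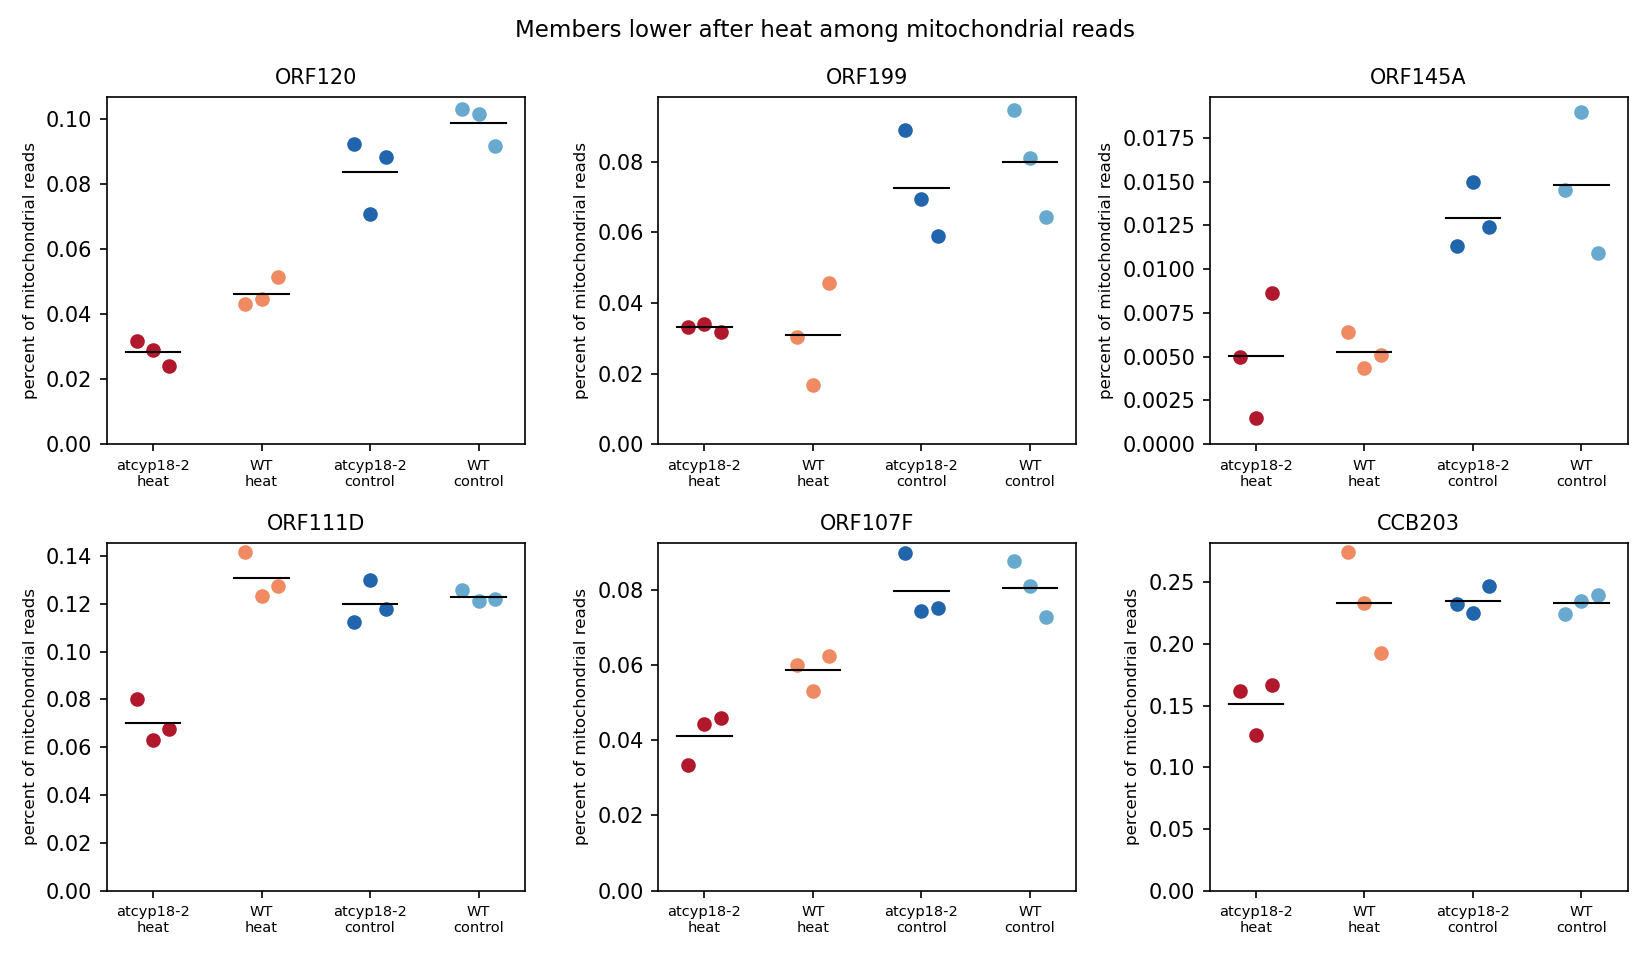
Percent of mitochondrial reads of 6 members that fell after heat among mitochondrial reads in at least 1 genotype, with 3 libraries per group as points and their mean as a line. ORF120 is lower in all heated libraries, while ORF111D, ORF107F and CCB203 are lowest in heated atcyp18-2 leaves.

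Between genotypes, in control leaves 0 of 88 genes passed in atcyp18-2 against WT under TMM scaling, with 1 at an unadjusted p below 0.05, where 0.018% of all genes were higher, 0.006% lower and 0.024% either. In that comparison 1 of 88 lay higher in all 3 atcyp18-2 libraries (3.65% of all genes) and 0 lay lower (3.1%); as shares of mitochondrial reads 1 lay higher (0.882%) and 1 lower (2.89%). After heat 0 of 88 passed under TMM scaling, with 11 at an unadjusted p below 0.05, where 0.138% of all genes were higher, 0.06% lower and 0.198% either; 0 lay higher in all atcyp18-2 libraries (7.62% of all genes) and 3 lower (7.34%). No share of all genes stands beside the counts at an unadjusted p, so these counts are a description. Within mitochondrial reads 0 passed after heat, with 14 at an unadjusted p below 0.05. In that comparison 19 of 88 genes lay lower in all heated atcyp18-2 libraries than in all heated WT libraries as a share of mitochondrial reads, and 17 of the 19 were ORFs; among all genes 5.78% did so. The number that lay higher was 0, where 4.43% of all genes did so. Among the 19, ORF143, ORF110B and ORF164 had reached the filter through heated libraries alone. ORF139A and ORF139B, also among them, may count the same reads. The count of 19 is therefore a description. ORF111D held 0.0702% ± 0.00886 of mitochondrial reads in heated atcyp18-2 leaves and 0.131% ± 0.00969 in heated WT leaves (SD, n = 3 each), a difference that did not pass, with a log2 value of -0.89 ± 0.18 (adjusted p = 0.272, edgeR). With the 7 libraries of positive score, 6 genes were lower in heated atcyp18-2 leaves under TMM scaling (1.33% of all genes) and 4 within mitochondrial reads (0.894% of all genes), ORF111D, CCB203, ORF215B and ORF251 in both.

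Nuclear genes that act with the mitochondrial ones were tested under TMM scaling, where 16.2% of all genes rose in atcyp18-2 leaves and 13.1% in WT leaves. Of 28 nuclear genes of the respiratory chain 8 rose in atcyp18-2 leaves, with a median log2 fold change of 0.33, and 7 rose in WT leaves, with a median of 0.40. CYTC-2, a cytochrome c, rose by 1.72 ± 0.13 in atcyp18-2 leaves (adjusted p = 5.17e-07, edgeR) and by 1.66 ± 0.13 in WT leaves (adjusted p = 8.75e-07, edgeR), and the iron-sulfur subunit SDH2-1 of complex II rose by 0.86 ± 0.19 in atcyp18-2 leaves and 1.09 ± 0.19 in WT leaves. ATP2-1, the most abundant of the list, was at 0.35 ± 0.22 in atcyp18-2 leaves and 0.47 ± 0.22 in WT leaves and did not pass.

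Of 8 fitted genes for alternative respiration 2 rose and 1, the uncoupling protein UCP1, at -0.50 ± 0.16 (adjusted p = 0.0307, edgeR), fell in atcyp18-2 leaves, and 2 rose in WT leaves. AOX1A, the alternative oxidase, rose by 2.02 ± 0.17 in atcyp18-2 leaves (adjusted p = 2.07e-06, edgeR) and by 1.97 ± 0.17 in WT leaves (adjusted p = 3.22e-06, edgeR), and NDB2, an external NAD(P)H dehydrogenase, rose by 1.65 ± 0.22 in atcyp18-2 leaves and 1.48 ± 0.21 in WT leaves. The prohibitin PHB3 rose by 1.78 ± 0.26 in atcyp18-2 leaves (adjusted p = 0.000224, edgeR) and 1.48 ± 0.26 in WT leaves (adjusted p = 0.00125, edgeR). Of 6 genes for mitochondrial RNA metabolism 0 rose and 1 fell in atcyp18-2 leaves, the RNA polymerase RPOTm, which changed by -0.68 ± 0.24 (adjusted p = 0.0465, edgeR), and 0 passed in WT leaves, where 1 had an unadjusted p below 0.05.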

How the data were processed

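Deposited counts per transcript were used, which the file header presents as raw. The submitters' processing notes name HTSeq and DESeq with no version or role; no aligner, build, strand setting or RNA selection is given in them. The lowest value in every library was 1, so 1 read per row was taken off for the read numbers and shares printed, while edgeR ran on the counts as deposited. The transcript with the largest sum stood for each gene; for 20 of the 121 mitochondrial genes it is an assembled one. The design had assumed counts per gene. The 12 columns of normalized values were not used, and ribosomal and transfer RNA genes were not analysed here.

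Tests were quasi-likelihood fits of edgeR 4.0.16 in R 4.3.3 over 12 libraries with a coefficient per group (8 residual degrees of freedom), TMM scaling, filterByExpr and Benjamini-Hochberg adjustment over 16664 genes. A second fit took the mitochondrial reads of each library as its size. SE is the absolute log2 fold change over the root of F. The log2 fold changes of the authors' deposited table, which gives adjusted p-values beside them, were copied. DESeq2 1.42.0 was an alternative, and edgeR was tested on simulated data. Chromosome 2 copies were found with blastn 2.17.0, at 99% identity over 50% of a locus. Named by rule were the most abundant, highest and lowest of each role list, up to 8 called members with the largest change per comparison and scaling, ORFs among the 10 most abundant, and in nuclear lists the most abundant and up to 3 called genes; the other called members were named after their values were seen. Members and lists were chosen with earlier results of these data known.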

Additional observations from a re-analysis of the deposited data

How the results depend on the processing

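Counts of called mitochondrial genes moved with the scaling and the libraries. For heat in WT leaves the 55 calls became 15 with library totals, 36 with no filter on low counts, 36 without genes that have a chromosome 2 copy, where fewer genes are counted by construction, and 19 to 72 without 1 library. For heat in atcyp18-2 leaves the 25 calls became 15 to 41 without 1 library and 69 with the libraries of positive score, a choice made after seeing the data, as was that of annotated transcripts. With the same libraries 6 genes passed after heat between genotypes, and within mitochondrial reads 29 passed for heat in atcyp18-2 leaves and 4 after heat between genotypes. The differences of the mitochondrial share became 0.721 percentage points for heat in atcyp18-2 leaves, 1.24 for heat in WT leaves, 0.242 for atcyp18-2 against WT without heat and -0.274 after heat when chloroplast reads were left out. The cause of these moves was not tested. No share of all genes stands beside the counts with no filter or without 1 library, so they are not set against the whole table.

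With library totals the log2 sign turned for heat in WT leaves in RPL16 (-0.48), RPS3 (-0.35), ORF110A (-0.051), ABCI3 (-0.24) and ATP1 (-0.053). For heat in atcyp18-2 leaves it turned in RPL16 (-0.21), RPS3 (-0.27), ABCI2 (-0.094), CCB452 (-0.16), ORF110A (-0.15), RPL2 (-0.043), NAD5B (-0.13), ABCI3 (-0.42), CCB203 (-0.59), NAD3 (-0.15), NAD1B (-0.19) and ATP1 (-0.066). Within mitochondrial reads small values turned: CCB203 in WT leaves to -0.025 with TMM over mitochondrial genes and -0.31 with annotated transcripts, CCB382 in atcyp18-2 leaves to 0.045 and ORF215B to 0.027 with TMM over mitochondrial genes. Annotated transcripts put ORF111D at -0.51 in WT and ORF215B at 0.22 in atcyp18-2 leaves. Libraries of positive score put ABCI2 at -0.17, RPL2 at 0.081, NAD3 at 0.18 and ORF204 at -0.20 in WT leaves, and ORF215B at 0.011 in atcyp18-2 leaves.

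Without 1 library, under TMM scaling, ORF120 ranged from -0.22 to 0.063 in WT leaves and CCB203 from -0.0031 to 0.44 in atcyp18-2 leaves. Within mitochondrial reads the ranges that crossed 0 in WT leaves were -0.064 to 0.36 for ABCI2, -0.13 to 0.023 for RPL2, -0.13 to 0.12 for CCB203 and -0.067 to 0.74 for ORF204. In atcyp18-2 leaves they were -0.90 to 0.19 for RPL16, -0.82 to 0.065 for RPS3, -0.30 to 0.10 for ABCI2, -0.033 to 0.072 for RPL5, -0.0050 to 0.14 for ORFX, -0.026 to 0.18 for COX3, -0.21 to 0.14 for CCB382, -0.093 to 0.10 for ORF215B, -0.61 to 0.14 for NAD3, -0.085 to 0.21 for ATP6-2 and -0.39 to 0.11 for ATP1.

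The replicate numbers did not pair the libraries: same-numbered libraries correlated at -0.72 to 0.59. With the replicate number as a block, 18 genes passed for heat in atcyp18-2 leaves and 33 for heat in WT leaves, again with no share of all genes beside them. With that block CCB203 in WT leaves stood at -0.0018 within mitochondrial reads. The alternatives without ribosomal RNA genes were not run. The 8 ORFs that rose in both genotypes rest on few reads, 227 to 838 each.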
